A study of Mus musculus with 12 samples.

Results

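The macrophage and monocyte markers examined here were 10 genes: Csf1r, Adgre1, Cd68, Lyz2, Cd14, Mrc1, Itgam, Mpeg1, Marco and Tyrobp. They were chosen by symbol, and all 10 had at least 1 RefSeq transcript in the deposited count table, 14 of its 41388 transcripts in all. The table held 12 RNA-seq libraries of mouse female germline stem cells (FGSCs) of the C57BL/6 strain, at passages over 20, in 4 groups of 3. KO carried a knockout of Stella (listed as Dppa3) made with CRISPR/Cas9 and was 1 clone picked at random. KO-con was its control, which the labels describe no further. Over expressed Stella from a lentivirus under puromycin selection, and Over-con carried the empty vector. All 4 groups shared the culture: cells first purified from ovary with an antibody to the germ cell protein MVH and then grown on inactivated STO feeder cells, a mouse embryonic fibroblast line. The question put to the markers was which blood lineage, if any, the counts fit, and whether their levels moved with Stella.

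Macrophages and monocytes are phagocytic cells of the myeloid blood lineage. They depend on signalling from the CSF1 receptor, sense bacterial lipopolysaccharide through CD14 and TLR4, and pass the signals of many activating receptors through the adaptor TYROBP. Their identity is set in large part by the transcription factor PU.1, which is encoded by Spi1 and binds a purine-rich core, and the ovary holds resident macrophages beside its germ cells and stroma.

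Library totals lay between 5611846 and 12866545 counts, so 3 counts, used here as the floor below which a gene was not taken as seen, stood for 0.233 to 0.535 CPM (counts scaled to the library total). Floors cover counting error only. Stella itself had 0 counts in all KO-con, KO and Over-con libraries and 347, 371 and 285 counts in the Over libraries, so the knockout label could not be checked from its transcript. Few usual markers of the labelled cell type were seen: 1 of 15 germ cell genes (Ifitm3) reached 1 CPM in every library, whereas 9 of 12 fibroblast genes did. Over genes with 1 listed transcript these were 1 of 8, with Stella among the 8, and 6 of 7. The paper reported Mvh, Oct4, Dazl and Stella in its FGSCs by RT-PCR, and MVH, STELLA and OCT4 by immunofluorescence. Genes with several listed transcripts were seen less often. Of 16937 genes with 1 transcript 39.0% reached 1 CPM in every library, against 16.7% of 7876 genes with 2 or more. A 0 for a gene of the latter kind therefore says less.

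The promoters of the most abundant marker by CPM and of a marker near the floor are shown because both hold the PU.1 core while Spi1 was well expressed. Windows of 250 bases before to 50 bases after the start were read from RefSeq, build GRCm38.p6, 5′ to 3′ on the strand of the gene, with each GAGGAA or its complement TTCCTC in capitals.
Cd68, chr11:69666121-69666420, minus strand: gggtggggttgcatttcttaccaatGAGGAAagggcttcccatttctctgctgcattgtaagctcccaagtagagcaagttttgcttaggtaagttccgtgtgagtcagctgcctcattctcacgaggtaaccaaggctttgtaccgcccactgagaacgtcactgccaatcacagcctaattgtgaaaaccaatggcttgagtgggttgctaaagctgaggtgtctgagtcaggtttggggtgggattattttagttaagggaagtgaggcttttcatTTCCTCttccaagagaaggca
Mrc1, chr2:14229164-14229463, plus strand: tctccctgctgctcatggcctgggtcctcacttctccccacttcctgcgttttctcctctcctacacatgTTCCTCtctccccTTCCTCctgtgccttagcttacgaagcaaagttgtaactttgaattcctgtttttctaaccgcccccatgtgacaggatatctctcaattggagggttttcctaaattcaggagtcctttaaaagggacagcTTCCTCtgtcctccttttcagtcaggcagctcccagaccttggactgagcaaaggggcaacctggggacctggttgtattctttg

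The Cd68 window held 2 matches and the Mrc1 window 3, although Cd68 was the most abundant marker by CPM and Mrc1 was over the floor in 6 of 12 libraries. Of the 6 members with a window, Cd68, Mrc1, Itgam and Marco held the motif and Lyz2 and Mpeg1 did not, while 28.3% of all 32851 windows held it. A match is a description of the letters and not of binding.

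Levels formed 3 tiers. Cd68, Tyrobp, Cd14 and Mpeg1 reached at least 1 CPM in all 12 libraries, Csf1r and Lyz2 stayed near the floor, and Mrc1, Marco, Adgre1 and Itgam were at or under it in at least 6 libraries. Per kb of merged exon (mm9), the mean over 12 libraries was 29.7 CPM for Tyrobp, 27.3 for Cd68, 4.35 for Cd14, 0.708 for Mpeg1, 0.511 for Lyz2, 0.206 for Csf1r, 0.065 for Mrc1 and 0.0195 for Marco. Tyrobp and Cd68 thus stood far above the rest per unit of length. Cd68 has 2 listed transcripts, and genes of that kind were seen less often, so its place beside Tyrobp is less certain.

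**Figure D1:**
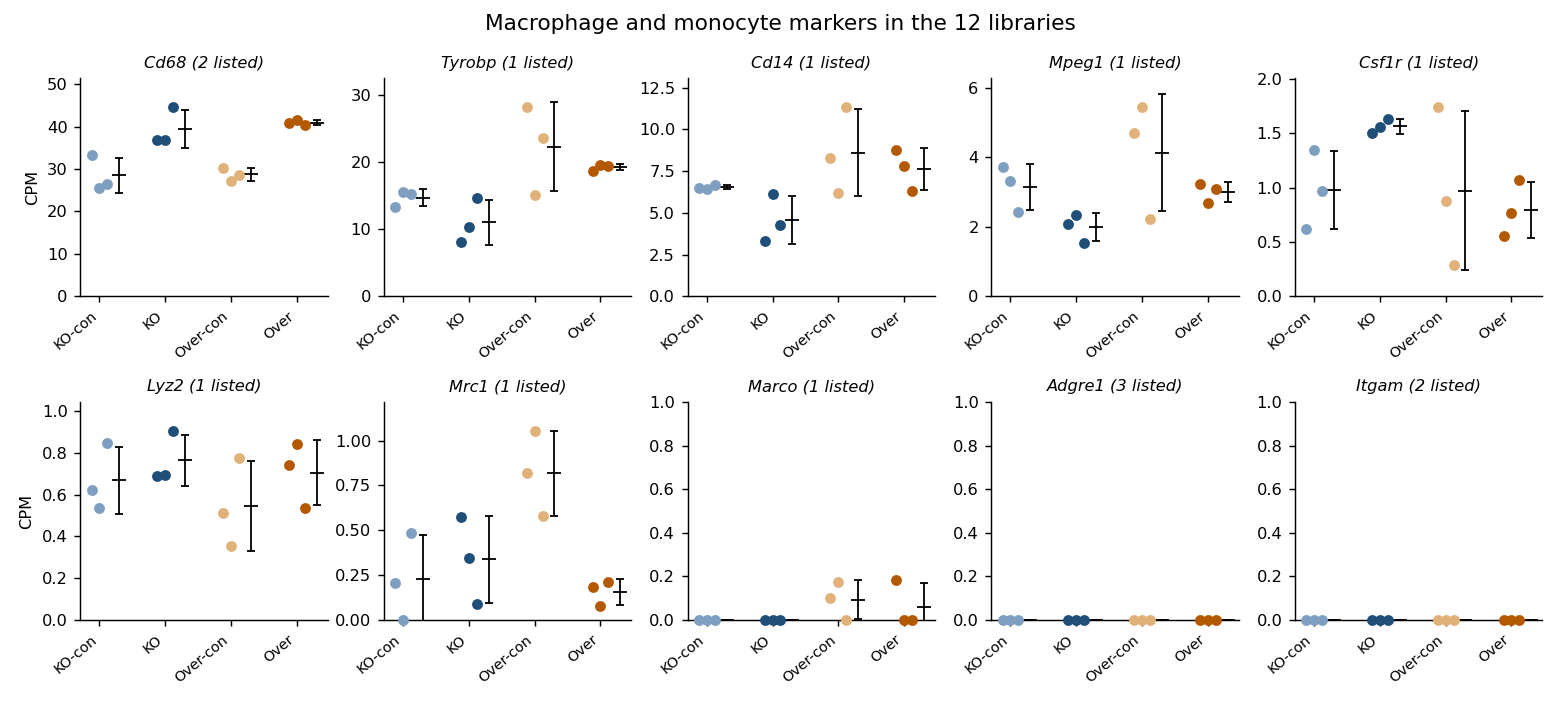
Each panel plots CPM (normalized over all 12 libraries, linear axis from 0, scaled per gene) of 1 marker by group, points being libraries and the bar the mean ± SD of 3, with the number of listed transcripts in brackets. Cd68 is at 36.8 CPM or more in all KO and Over libraries and at 33.3 or less in all control libraries, whereas Adgre1 and Itgam are at 0 throughout.

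Cd68 (NM_001291058) encodes a heavily glycosylated protein of the lysosomal and endosomal membrane and lies on mm9 chromosome 11 from 69477715 to 69479655, minus strand, in 6 exon blocks. Its level was 33.3, 25.6 and 26.5 CPM in the KO-con libraries, 36.9, 36.8 and 44.6 in KO, 30.2, 27.3 and 28.6 in Over-con, and 40.8, 41.5 and 40.3 in Over. All 6 KO and Over libraries thus stood above all 6 control libraries, and how many of all transcripts separate this way was not counted. Groups did not overlap for 30.5% of transcripts in KO against KO-con and 19.3% in Over against Over-con. The counts behind these values ran from 155 to 542 per library. All were on 1 of its 2 listed transcripts, the other being at 0 in every library, so its level beside other genes says less.

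Tyrobp (NM_011662), the membrane adaptor that couples activating receptors to the kinase SYK, lies on chromosome 7 from 31198807 to 31202596, plus strand, in 5 exon blocks. It measured 13.2, 15.6 and 15.1 CPM in KO-con, 8.06, 10.3 and 14.6 in KO, 28.2, 15.1 and 23.5 in Over-con, and 18.7, 19.5 and 19.4 in Over. The lowest values were in KO and the highest in Over-con, where the spread was also widest, and every Over library was above every KO-con library.

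Cd14 (NM_009841), the co-receptor that hands lipopolysaccharide to TLR4, lies on chromosome 18 from 36884728 to 36886390, minus strand. Its values were 6.52, 6.44 and 6.66 CPM in KO-con, 3.34, 6.16 and 4.26 in KO, 8.30, 6.16 and 11.4 in Over-con, and 8.79, 7.81 and 6.31 in Over. All KO libraries were below all KO-con libraries, and the Over-con and Over libraries overlapped.

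Mpeg1 (NM_010821), which encodes the pore-forming protein perforin-2 of phagocytes, lies on chromosome 19 from 12535269 to 12539774, plus strand. Its values were 3.72, 3.31 and 2.42 CPM in KO-con, 2.07, 2.34 and 1.54 in KO, 4.72, 5.46 and 2.23 in Over-con, and 3.24, 2.68 and 3.10 in Over. The lowest Over-con library lay below every Over library and the other 2 above, and the KO mean was the lowest, as for Tyrobp and Cd14.

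Csf1r (NM_001037859), the receptor for CSF1 and IL-34 on which most macrophages depend, lies on chromosome 18 from 61265226 to 61291803, plus strand, in 23 exon blocks. It had 6, 15 and 8 counts in KO-con, 13, 18 and 18 in KO, 17, 5 and 3 in Over-con, and 6, 10 and 10 in Over, or 0.291 to 1.74 CPM. The 3 KO libraries were above the 3 KO-con libraries, and the 2 control groups and Over overlapped. Of its exon bases 16.7% are overlapped by Hmgxb3 on the other strand, a gene listed at 0 in all 12 libraries. Hmgxb3 has 2 listed transcripts, so its 0 says less.

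Lyz2 (NM_017372), the lysozyme of myeloid cells, had 2 to 11 counts per library and group means of 0.669 CPM in KO-con, 0.764 in KO, 0.547 in Over-con and 0.706 in Over, with all groups overlapping. Of its 50-base stretches 15.4% are shared with the paralog Lyz1, which had at most 1 count in any library. Mrc1 (NM_008625), the mannose receptor of tissue macrophages, had 2, 0 and 4 counts in KO-con, 5, 4 and 1 in KO, 8, 6 and 6 in Over-con, and 2, 1 and 2 in Over. Its Over-con libraries were above all others, yet 6 of 12 libraries were at or under the floor. Marco (NM_010766), a scavenger receptor, had 1 count in each of 2 Over-con libraries, 2 counts in 1 Over library and 0 in the other 9.

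Adgre1, which encodes the macrophage antigen F4/80, and Itgam, the alpha chain of complement receptor 3, had 0 counts in all 12 libraries. They have 3 and 2 listed transcripts, so the 0 for these 2 defining markers says less than a 0 at a gene with 1 transcript. Among the 7 members with 1 transcript, 3 were present at 1 CPM in every library, near the share of 39.0% over all such genes. Marco was at or under the floor in every library.

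Ordered by group mean, Cd68 read 40.9 ± 0.599 CPM in Over, 39.4 ± 4.52 in KO, 28.7 ± 1.48 in Over-con and 28.5 ± 4.21 in KO-con (SD, n = 3), with overlap between Over and KO and between the controls. Tyrobp read 22.3 ± 6.61 in Over-con, 19.2 ± 0.441 in Over, 14.65 ± 1.24 in KO-con and 11.0 ± 3.33 in KO, where only Over and KO-con did not overlap among neighbours. Cd14 followed the same order of groups as Tyrobp, from 8.61 ± 2.61 in Over-con to 4.59 ± 1.44 in KO, and only KO-con and KO did not overlap among neighbours. Mpeg1 read 4.13 ± 1.69 in Over-con, 3.15 ± 0.665 in KO-con, 3.01 ± 0.291 in Over and 1.99 ± 0.407 in KO, the last apart from its neighbour Over. Csf1r read 1.56 ± 0.068 in KO, apart from KO-con at 0.977 ± 0.361, while KO-con, Over-con at 0.971 ± 0.73 and Over at 0.797 ± 0.258 overlapped.

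Other lineages were read from lists of their markers in the same libraries. Pan-blood genes were present in 6 of 10 cases, against 32.0% of all genes. The 3 with 1 listed transcript, Laptm5 (a lysosomal protein of blood cells), Cd53 (a leukocyte tetraspanin) and Was (an actin regulator of blood cells), stood at 233, 105 and 43.1 CPM per kb, all above Tyrobp. Of the 7 with 2 or more transcripts Ptprc, Coro1a and Lcp1 were at 8.29, 1.30 and 1.04, Fermt3 was at or under the floor, and Vav1, Ikzf1 and Runx1 were at 0. Some myeloid genes were high too. Spi1 stood at 38.8 CPM per kb, Fcgr1 (a high-affinity receptor for IgG) at 70.4 and Clec4e (a C-type lectin of myeloid cells) at 12.4.

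Further macrophage markers with 1 listed transcript split in the same way as the members did. Of 13 such genes 5 were present in every library, namely Fcgr1, Clec4e, Lpl, Slc11a1 and Mertk, near the share of 39.0% over all genes with 1 listed transcript. The complement genes C1qa, C1qb and C1qc, the chemokine receptors Cx3cr1 and Ccr2, and the resident macrophage receptors Timd4 and Vsig4 were at or under the floor in every library.

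Mast cell genes split as well. Cpa3, a mast cell protease, was at 521 CPM per kb and Fcer1g, the signalling chain of Fc receptors, at 128. Il1rl1, with 3 listed transcripts, came next by CPM per kb, and 4 of all 18 genes of the list were present. Fcer1a, Mcpt1, Mcpt4, Tpsb2, Tpsab1 and Mrgprb2, each with 1 listed transcript, were at or under the floor in all 12 libraries. In all, 3 of 12 such mast cell genes and 3 of 7 markers examined here were present, beside 39.0% of all genes with 1 listed transcript.

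Among 13 neutrophil genes with 1 listed transcript, Ctsg at 172 and Cxcr2 at 77.2 CPM per kb were present, while Elane, Mpo, S100a8, Ltf, Ly6g, Retnlg and Fcnb were at or under the floor. Of 6 basophil genes 3 were present, Cd69, Il4 (with 2 listed transcripts) and Mcpt8, at 77.2, 13.7 and 3.80 CPM per kb. Present counts were 3 of 6 for megakaryocytes (Itga2b, Gp1ba and Vwf), 2 of 8 for erythroid cells (Epor and Gata1), 1 of 8 for T and NK cells (Prf1), 0 of 5 for dendritic cells and 0 of 4 for B cells, again over genes with 1 listed transcript. Over the whole series 39.0% of such genes were present. No list of a single blood lineage had all such genes present, and the macrophage, mast, neutrophil, megakaryocyte, erythroid and T and NK lists each held genes over 10 CPM per kb beside genes at or under the floor.

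**Figure D2:**
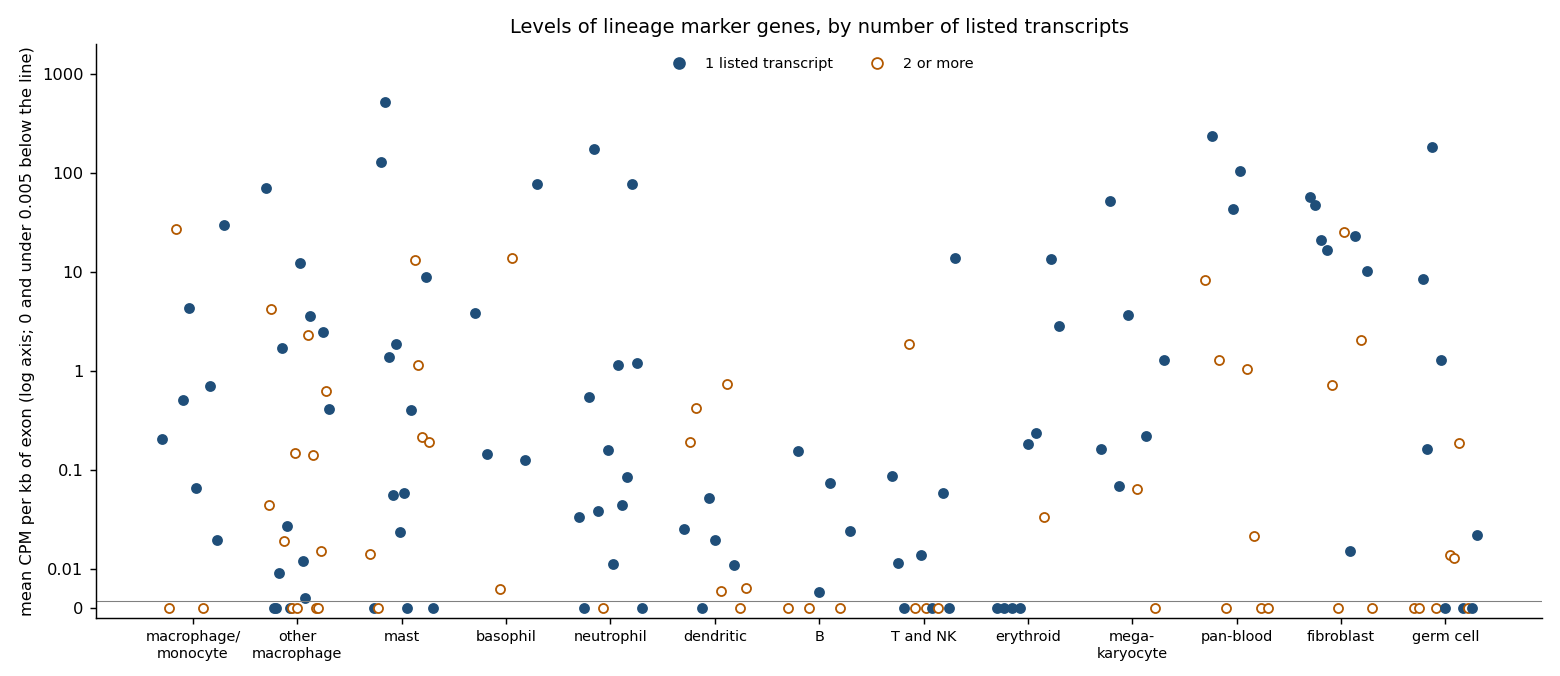
The plot gives mean CPM per kb of merged exon over 12 libraries on a log axis for each gene of 13 marker lists, filled points for genes with 1 listed transcript and open points for genes with 2 or more, with values under 0.005 drawn below the line. The pan-blood genes with 1 transcript all lie at 43.1 or above, whereas the macrophage, mast, neutrophil, megakaryocyte, erythroid and T and NK lists spread from above 10 to under 0.1.

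The summed level of the 10 markers was 52.8 to 58.2 CPM in KO-con, 53.1 to 67.7 in KO, 56.5 to 74.6 in Over-con and 70.9 to 73.2 in Over. Cd68 and Tyrobp made up most of it in each group. In these bulk libraries fewer cells of a type and less RNA per cell cannot be told apart. Fibroblast genes, which mark cells such as the feeders, summed to 1215 to 1417 CPM in KO-con, 1095 to 1549 in KO, 1729 to 1912 in Over-con and 1517 to 1574 in Over. Their part in the differences between groups was not tested.

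After the filter on low counts, 5 of the 10 markers could be tested in KO against KO-con and 4 in the other 2 comparisons of groups. Lyz2, Mrc1, Marco, Adgre1 and Itgam passed it in none, and Csf1r passed only where KO, its highest group, took part. It was therefore left out of the counts and tests that follow, except the count of alternatives in the last paragraph.

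In KO against KO-con, Cd68 rose and Mpeg1, Cd14 and Tyrobp did not pass. The rise was 0.48 ± 0.12 on the log2 scale (± SE; 95% interval 0.23 to 0.73; adjusted p = 0.0158, edgeR quasi-likelihood test with Benjamini-Hochberg adjustment over 9457 transcripts), with the groups of 3 not overlapping. Mpeg1, Cd14 and Tyrobp had log2 values of -0.67, -0.48 and -0.39 with adjusted p of 0.162, 0.187 and 0.191 (edgeR). So 1 of 4 markers passed, against 11.8% of all transcripts tested, and 3 of 4 did not overlap between groups, against 30.5%. An unadjusted p under 0.05 was reached by all 4, against 25.4% of all transcripts. Nothing says that the 3 libraries of a group came from separate cultures, so p-values measure the spread between libraries, which may be technical. KO was also 1 clone, so an effect of the knockout cannot be told apart from a trait of that clone.

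The Cd68 call in KO rested on single libraries. Its adjusted p (edgeR) was 0.0899 without KO-con replicate 2, 0.075 without KO-con replicate 3 and 0.0512 without KO replicate 3, with log2 values of 0.41, 0.43 and 0.37. Tyrobp passed when KO replicate 3, its highest KO library, was left out, at a log2 value of -0.66 and an adjusted p (edgeR) of 0.0144.

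Markers of other cell types also moved in KO. Of 9 mast cell genes tested Cpa3, Cma1 and Hdc were higher, by 1.55, 1.79 and 1.30 on the log2 scale. Cma1 passed the filter on low counts only through KO, its highest group, as Csf1r did, so its call says less. Of 3 neutrophil genes Ctsg was higher by 1.17 and Mmp8 had -2.45, and of 9 fibroblast genes Fbn1 was higher by 0.45 while Pdgfra and Dcn had -1.56 and -0.41. Cd247 and Itga2b were higher and Cd69, Epor, Vwf and Prdm1 lower (edgeR, adjusted p under 0.05). Mmp8 and Prdm1, both higher in KO-con than in KO, did not reach 1 CPM in every library, so their calls say less. Their part in the Cd68 result was not tested.

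In Over against Over-con, Cd68 rose again and the other 3 markers tested did not pass. Its log2 fold change was 0.51 ± 0.0889 (95% interval 0.32 to 0.70; adjusted p = 0.00645, edgeR over 9401 transcripts), with no overlap. Tyrobp, Cd14 and Mpeg1 had -0.24, -0.20 and -0.40, with adjusted p of 0.562, 0.742 and 0.623 (edgeR). So 1 of 4 passed, against 1.65% of all transcripts, and 1 of 4 did not overlap, against 19.3%. Without Over replicate 2 the adjusted p of Cd68 (edgeR) was 0.0602, at a log2 fold change of 0.50. Of other cell type markers Cpa3, Fbn1 and Ifitm3 were lower in Over, with log2 values of -0.30, -0.38 and -0.31, and Cd247 was higher by 1.14 (edgeR, adjusted p under 0.05), and their part in the result was not tested.

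Between the 2 controls, Tyrobp was the marker that differed. It was lower in KO-con than in Over-con by a log2 value of -0.63 ± 0.165 (adjusted p = 0.0117, edgeR over 9321 transcripts), although the lowest Over-con library lay within the KO-con range. Cd68, Cd14 and Mpeg1 had -0.01, -0.43 and -0.31, with adjusted p of 0.972, 0.169 and 0.547 (edgeR). So 1 of 4 passed against 16.3% of all transcripts, and 0 of 4 were free of overlap against 32.1%. The Tyrobp call was lost without KO-con replicate 1 (adjusted p = 0.0858, edgeR) and without Over-con replicate 1 (0.13).

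Genes of other cell types also differed between the controls, where 16.3% of all transcripts passed. Among 6 pan-blood genes tested Ptprc, Lcp1 and Laptm5 were lower in KO-con and Cd53 was higher, and among 9 fibroblast genes Col3a1, Fbn1, Col1a1, Col5a1 and Col1a2 were lower (edgeR, adjusted p under 0.05). Their part in the Tyrobp result was not tested.

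The differences of KO and of Over from their own controls, called effects here, were then compared in 1 fit of all 12 libraries. Of 4 markers 0 passed by edgeR, DESeq2 or limma-voom, against 8.64% of 9903 transcripts in edgeR, and 0 had an unadjusted p under 0.05 in edgeR, against 22.1%. For Cd68 the effect in KO minus that in Over was -0.03 on the log2 scale, with a 95% interval of -0.35 to 0.28. For Tyrobp, Cd14 and Mpeg1 the difference was -0.15, -0.28 and -0.26.

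**Figure D3:**
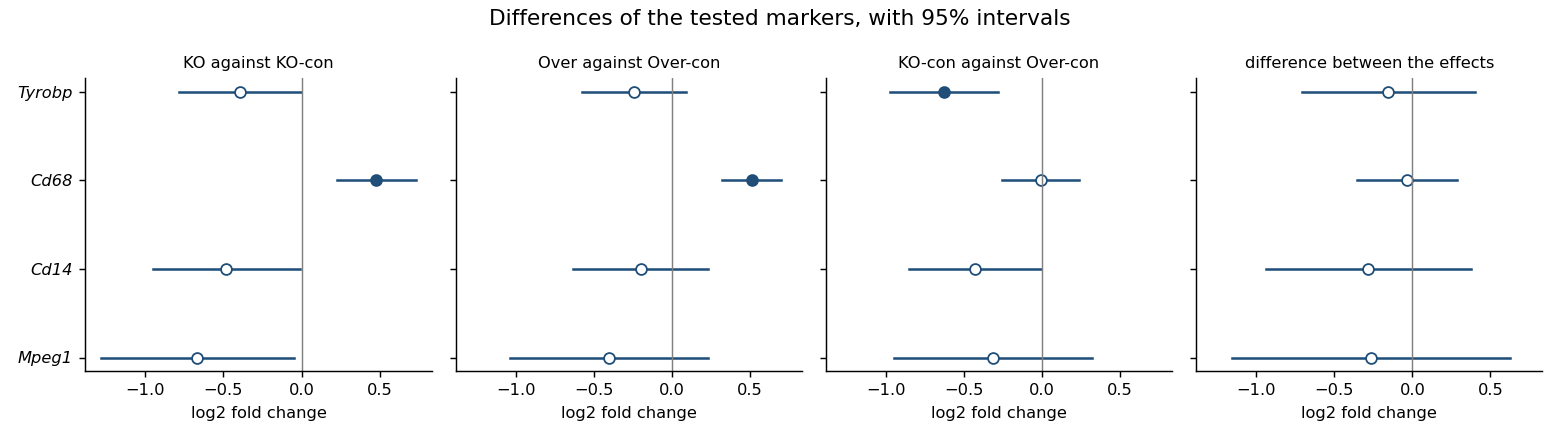
Points give log2 fold changes (edgeR) of 4 markers with 95% intervals in 4 comparisons, the last being the effect in KO minus that in Over, and filled points passed at an adjusted p under 0.05. Cd68 lies right of 0 in KO and in Over, at 0.48 and 0.51, and Tyrobp is the filled point left of 0 between the controls, at -0.63.

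Partners of the markers were read from 7 lists holding 95 further genes: CSF receptor signalling, the CD14 and TLR4 pathway, TYROBP signalling, beta-2 integrins and their ligands, scavenger and lysosomal genes, other macrophage markers and transcription factors. In KO 6 of 42 tested were higher and 4 lower, against 5.83% and 5.96% of all transcripts. In Over 1 of 44 passed and was lower, beside 0.766% of all transcripts higher and 0.883% lower. Between the controls 3 of 44 were higher in KO-con and 9 lower, against 8.08% and 8.19%, with Pilrb1 among the 9 only through the group where it is high. The medians were 0.067, -0.073 and -0.037 on the log2 scale, beside medians near 0 over all transcripts.

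Of the receptors upstream of CSF signalling, Csf2ra, the alpha chain of the GM-CSF receptor, rose in KO by 0.43 on the log2 scale, from 35.1 ± 4.42 to 47.0 ± 3.88 CPM (adjusted p = 0.0166, edgeR). That call was lost without KO replicate 2 (0.0869), KO-con replicate 1 (0.105) or KO-con replicate 3 (0.0813). Cish, an inhibitor of cytokine receptor signalling, fell from 99.8 ± 1.85 to 56.7 ± 1.06 CPM, a log2 value of -0.81 (adjusted p = 3.5e-06, edgeR). Both Over groups stood lower still for Cish, at 45.5 ± 4.21 in Over-con and 40.7 ± 2.23 in Over, and Cish and the related inhibitor Socs1 were higher in KO-con than in Over-con by 1.13 and 1.02. The ligand Csf1 was at 3.43 ± 1.16 CPM in KO-con and missed the threshold in KO (0.67, adjusted p = 0.127, edgeR), and Il34 was over the floor in 2 of 12 libraries.

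In the pathway that CD14 serves, the receptor Tlr4 rose in KO from 128 ± 9.46 to 175 ± 20.0 CPM (log2 0.45, adjusted p = 0.00248, edgeR), while Cd14 itself did not pass. Ticam2, an adaptor of TLR4, rose by 0.34 (adjusted p = 0.00494, edgeR). Lbp, which carries lipopolysaccharide to CD14, fell from 28.3 ± 0.559 to 11.6 ± 3.29 CPM, by 1.27 on the log2 scale (adjusted p = 7.6e-05, edgeR). Ly96, the co-receptor MD-2 with 2 listed transcripts, was at or under the floor in all 12 libraries. In Over Tlr4 and Ticam2 had -0.15 and -0.23, with adjusted p of 0.452 and 0.0945 (edgeR).

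Tyrobp's own partners were thinly measured. Of its list of 14 genes, 3 with Tyrobp included could be tested in KO and 5 in Over. Plcg2, a phospholipase downstream of SYK, was the most abundant at 37.5 CPM per kb, and Hcst, an adaptor related to Tyrobp that lies beside it on chromosome 7, was at 2.72. Trem2, a receptor that signals through TYROBP and has 2 listed transcripts, was at 0 in all libraries. Pilrb1, another such receptor, had 1, 3 and 2 counts in KO-con and 0, 3 and 0 in KO, at or under the floor, and 26, 18 and 30 in Over-con and 26, 28 and 29 in Over.

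Itgam's partner Itgb2, the shared beta chain of leukocyte integrins, was measured although Itgam was at 0. It fell in KO from 12.3 ± 0.489 to 8.10 ± 1.28 CPM (log2 -0.62, adjusted p = 0.0181, edgeR), and the integrin ligand Icam1 fell by 0.34. The Itgb2 call was lost without KO replicate 2 (adjusted p = 0.0809, edgeR), KO-con replicate 1 (0.0818) or KO-con replicate 2 (0.0615), and the Icam1 call without KO replicate 2 (0.0564), KO-con replicate 1 (0.094) or KO-con replicate 3 (0.0596). The complement component C3, which is made by many cell types, was the partner gene that passed in Over, with a log2 value of -0.50 (adjusted p = 0.00096, edgeR).

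Of 11 scavenger and lysosomal genes tested Cd68 was the one that passed, in KO and in Over, and the medians of the list were 0.13 and -0.10 beside 0.0067 and -0.0012 over all transcripts. The cathepsins Ctsd, Ctsl and Ctsb, each with 1 listed transcript, stood at 888, 744 and 237 CPM per kb. These were well above Cd68, which has 2 listed transcripts.

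Of the other macrophage markers Fcgr1 rose in KO by 0.38 and Lpl, the lipoprotein lipase, by 0.48, with adjusted p of 0.0033 and 0.0103 (edgeR). Without KO-con replicate 2 the Lpl call was lost (0.0738). Between the controls Clec4e, Nos2, Fcgr2b and Fcgr1 were lower in KO-con, by log2 values of -1.07, -1.34, -0.62 and -0.26. Among transcription factors Klf4 rose in KO by 0.44 (adjusted p = 0.00203, edgeR) and Spi1 did not pass, at 0.23 in KO and 0.073 in Over with adjusted p of 0.103 and 0.741 (edgeR). With Over-con in place of KO-con as the control of KO, Cish, Icam1 and Ticam2 changed sign, to 0.31, 0.22 and -0.0031, and Fcgr1 (0.10, adjusted p = 0.573, edgeR), Csf2ra (0.30, 0.128), Itgb2 (-0.37, 0.363) and Tlr4 (0.33, 0.0535) lost their calls.

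**Figure D4:**
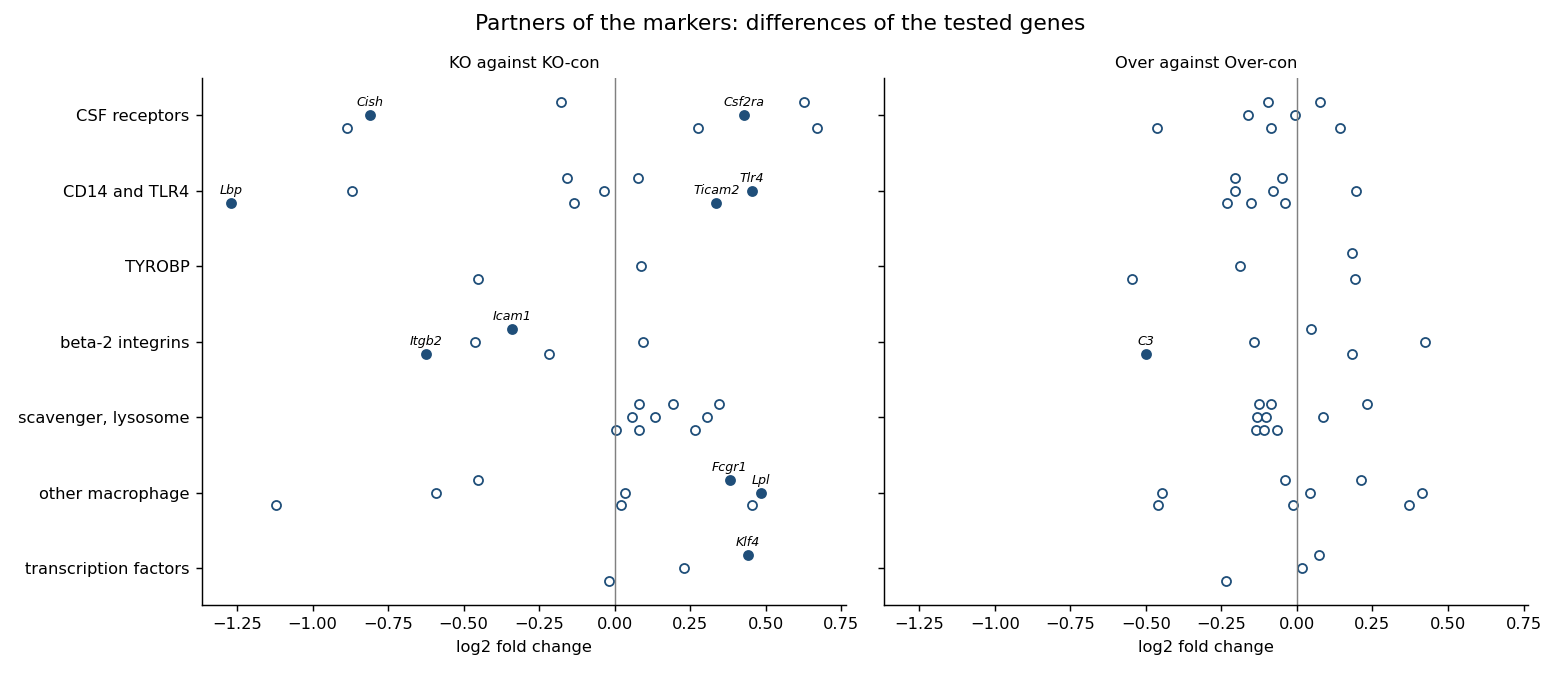
Log2 fold changes (edgeR) of the tested partner genes are plotted by list for knockout (left) and overexpression (right), each set against its own control, each point a gene, filled and named where the adjusted p was under 0.05. The KO panel holds 10 filled points, 6 to the right and 4 to the left of 0, and the Over panel holds C3 alone.

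The transcripts most like Tyrobp over the 12 libraries, by Pearson's r of log2 CPM among 9902 transcripts, were Mad2l1bp at 0.929, 1700017B05Rik at 0.926 and Pfkl at 0.925. For Cd68 they were Acat1 at 0.933, Incenp at 0.899 and Stmn1 at 0.884. These are the highest of many values over libraries that share 4 groups and are given as a description.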

How the data were processed

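Reads of 12 FGSC libraries, prepared with a stranded mRNA kit, were aligned by the authors to mm9 with HISAT2, and the authors deposited raw counts per RefSeq transcript, made with featureCounts as the table's name says. The strand setting and annotation release are not given in the sources used here. Groups and replicate numbers came from the sample titles. Symbols were found for 99.5% of 41388 transcripts in RefSeq's GRCm38.p6 table. Exon lengths came from the NCBIM37 (mm9) annotation. CPM used TMM factors over all 12 libraries. Tests used edgeR 4.0.16 (glmQLFit and glmQLFTest after filterByExpr), in R 4.3.3, and p-values were adjusted by Benjamini-Hochberg over the whole table tested, with a threshold of 0.05. Alternatives were DESeq2 1.42.0, limma-voom (3.58.1), other scaling and filters, counts summed per gene, all libraries in 1 fit, the replicate block, the other control group and each library left out. Plots were drawn with matplotlib 3.10.9.

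The text names the 10 members and the 3 transcripts most like each member with a mean of at least 10 CPM. Further genes were drawn from the 3 of each list with the highest CPM per kb and from partner genes that passed. The latter were limited to 5 per list and comparison. Not all genes of these last 2 kinds are named. Other genes were named after their values were seen, and the members and lists were chosen with earlier results of these data known. The replicate numbers did not pair libraries, with correlations of same-numbered deviations between -0.152 and 0.0559. On simulated data of 9527 genes for KO against KO-con, 86 of 98 genes with a 2-fold change were recovered and 99 of 99 with a 4-fold change, with 10 false calls. For the difference between effects (9812 genes) these were 66 of 99 and 89 of 96, with 6 false calls. Every simulated gene had the same spread beyond counting error. Recovery of changes smaller than 2-fold, such as those of the markers, was not measured.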

Additional observations from a re-analysis of the deposited data

Results flagged for a closer look

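None of 4 markers had an effect in KO that differed from that in Over at an adjusted p under 0.05 in edgeR. Of 45 partner genes tested 10 did, against 8.64% of all transcripts. Each is given here as the effect in KO minus that in Over on the log2 scale. In 7 the effect was higher in KO: Fcgr2b, an inhibitory receptor for IgG, at 0.91, Klf4 at 0.68, Tlr4 at 0.61, Ticam2 at 0.57, Csf2ra at 0.51, Lpl at 0.50 and Fcgr1 at 0.42. In 3 it was lower: Lbp at -1.19, Cish at -0.65 and Icam1 at -0.52. Fcgr2b had not passed in either comparison alone, at 0.45 in KO and -0.46 in Over with adjusted p (edgeR) of 0.0773 and 0.165. The Lpl difference passed in 5 of 21 settings, that of Csf2ra in 12, Icam1 in 16, Fcgr2b in 19 and each of the other 6 in 21. The KO and Over groups have controls of their own, and 12 of the 44 partner genes tested between those controls differed (edgeR).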

How the results depend on the processing

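Of the alternatives run, values of the markers kept their direction and side of the threshold in 283, and 10 changed sign, 6 lost and 3 gained a call. For the other named genes these numbers were 484, 3, 67 and 0. The marker numbers include Csf1r, which added only to those that kept direction and side. It stayed above 0 and passed in 0 of 16 settings in KO and 0 of 20 for the difference between effects, main fits included. With each library left out in turn, markers passing ranged from 0 to 1 in KO (0 without KO-con replicate 2 or 3), from 0 to 1 in Over (0 without Over replicate 2) and from 0 to 1 between the controls (0 without KO-con replicate 1 or Over-con replicate 1). With Over-con in place of KO-con, 3 markers passed in KO (Cd68, Cd14 at -0.92 and Tyrobp at -1.03), and Cish, Icam1 and Ticam2 turned to 0.31, 0.22 and -0.0031. With KO-con in place of Over-con, 2 passed in Over (Cd68 and Tyrobp, which turned to 0.39) and Cd14 turned to 0.24. With a library left out, Cd14 in Over ranged from -0.35 to 0.056 (without Over-con replicate 3). Cd68 between the controls ranged from -0.14 to 0.066 and was above 0 without KO-con replicate 2, KO-con replicate 3 or Over-con replicate 1. In the difference between effects, Cd68 ranged from -0.13 to 0.094 (above 0 without KO replicate 2 or KO-con replicate 1), Mpeg1 from -0.47 to 0.070 (without Over-con replicate 3) and Tyrobp from -0.41 to 0.026 (without Over-con replicate 2). The cause was not tested. With the replicate block, markers passing stayed at 1, 1 and 1 in the 3 comparisons and 0 for the difference, Cd68 had 0.48 in KO and 0.51 in Over, and transcripts passing in Over went from 155 to 67. At 5 CPM in every library 2 markers were present in place of 4. Without the genes of several transcripts, the summed level was 26.2 CPM in KO-con (54.7 with them), 20.2 in KO (59.7), 37.4 in Over-con (66.2) and 31.55 in Over (72.4), and by library totals it was 73.95 in Over. Over all transcripts the count passing was 302 in Over with no filter, 2026 with KO-con as its control and 48 to 719 with a library left out, and 737 in KO with Over-con; with a library left out it went as low as 613 in KO (1115 with all), 882 between the controls (1516) and 536 for the difference (856). The depth limits Csf1r, Lyz2, Mrc1 and Marco, whose counts are near the floor.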
